A study of Mus musculus with 15 samples.

Results

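The genes described here encode the nuclear subunits of the mitochondrial respiratory chain and of ATP synthase. They were taken by gene symbol from the array's annotation: symbols starting with Ndufa, Ndufb, Ndufc, Ndufs, Ndufv, Uqcr, Atp5, Cox4i, Cox5, Cox6, Cox7 or Cox8, and Sdha, Sdhb, Sdhc, Sdhd and Cyc1. The rule found 180 probe sets that carry 1 symbol, for 91 of the 18193 genes with a probe set of their own, and for each gene the probe set brightest on average across the arrays was used. A further 10 probe sets match the rule but carry several symbols and were not named. After a filter on low signal, 86 of the 91 genes were among the 11908 genes tested, and Cox4i2, Cox7b2, Cox8b, Ndufa4l2 and Ndufb4 were not. By complex, the genes tested were 33 of 34 for complex I, 4 of 4 for complex II, 9 of 9 for complex III, 15 of 19 for complex IV and 17 of 17 for complex V. The prefixes also caught 8 Ndufaf genes, which encode assembly factors of complex I and not subunits, and all 8 were tested.

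The data are 15 Affymetrix mouse arrays, in 5 groups of biological triplicates. The tumour groups were side population (SP) cells of line 3447, SP cells of line 4346 and non-SP cells of line 3447. The lines are tumorspheres, free-floating cultures from brain tumours of S100beta-verbB mice, which carry the verbB oncogene under the S100beta promoter and were either p53-/- or p53+/-. They were injected into the brains of immunodeficient mice of the NOD background carrying Prkdc scid and Il2rg tm1Wjl, and cells taken back from the resulting tumours were cultured and sorted by flow cytometry. SP cells are those that keep little of a DNA dye because membrane transporters pump it out. Untransformed neurospheres gave the control SP and non-SP cells. They are cultures of neural stem and progenitor cells that carry the same transgene and p53 alleles. The sources describe the neurospheres in 1 place as coming from 3 independent mice and elsewhere as injected, so their history is not certain. Each tumour line is a single line, no age is given, and the arrays within a tumour group are separate injected animals of that line.

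The respiratory chain passes electrons from NADH at complex I and from succinate at complex II through complexes III and IV to oxygen, and pumps protons across the inner mitochondrial membrane. Complex V, the ATP synthase, uses the returning protons to make ATP. Most subunits are encoded in the nucleus, as are all genes here, and their promoters are known to bind nuclear respiratory factor 1 (NRF1), ETS factors such as GABP, and YY1.

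The highest and lowest median deposited signals of the 15 arrays differed 2.23-fold. A pair of arrays stood apart: array 3 of the 3447 SP cells had the highest median, and array 3 of the 4346 SP cells had the highest 3' to 5' ratios, 5.30 for actin, where the rest gave 2.49 to 3.29, and 2.00 for Gapdh, where the rest gave 1.33 to 1.62. Markers of microglia, endothelium, muscle and red blood cells were not among the genes tested, for all 6, 4, 5 and 2 of those on the array. Marker signals are given as deposited, without normalization between arrays. The 6 markers of the oligodendrocyte lineage summed to 10405 to 22640 in tumour arrays, against 6978 to 12165 in neurosphere arrays, and these ranges overlap. Its members went different ways: Sox10, Pdgfra, Cspg4 and Gpr17 were higher on every tumour array, with Sox10 at 2602 to 8730 against 0.819 to 20.7, Olig2 was lower on every tumour array, at 1084 to 3587 against 3613 to 5384, and Olig1 overlapped, at 1062 to 3446 against 2963 to 5321. The astrocyte and neural stem cell list summed to 14623 to 22451 in tumour arrays, against 27361 to 43965 in neurosphere arrays. Of its members, Slc1a3 and Nes were lower on every tumour array, at 1689 to 7510 against 8289 to 15135 and at 336 to 570 against 1145 to 2079. Fabp7, Slc1a2, Gfap, Aqp4 and Sox2 overlapped, with Sox2 at 5656 to 7326 against 5726 to 7262. The 5 neuron markers, of which 3 were among the genes tested, summed to 333 to 1152 in tumour arrays, against 109 to 1314. Tubb3 was higher on every tumour array, at 268 to 828 against 16.3 to 172, and Dcx, Rbfox3, Snap25 and Stmn2 overlapped. The part of these cell type markers in the results below was not tested.

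Signals are given after quantile normalization between arrays, and differences are on the scale of log2(signal + 16), tumour minus neurosphere and SP minus non-SP, with their standard error (SE). Because of the added 16, differences of dim genes are understated. P-values come from limma with Benjamini-Hochberg adjustment over all 11908 genes, and a gene was called at an adjusted p under 0.05. They measure the spread between these arrays, and the number of arrays limits the precision. In bulk cultures, fewer cells of a type that express a gene and less RNA per cell cannot be told apart.

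Some subunits were called in the same direction in the SP cells of both tumour lines, set against neurosphere SP cells. Ndufa6, an accessory subunit of complex I, and Atp5g2, which encodes a copy of the membrane ring subunit of complex V, were higher in tumour cells. Cox5a, a subunit of complex IV, Uqcrc1, a core subunit of complex III, Cox8a, Atp5a1, Atp5b and Ndufab1 were lower. Ndufa6, Atp5g2, Cox5a and Uqcrc1 were chosen for the first account after their values were seen. The 2 tumour SP groups are set against the same 3 neurosphere SP arrays, so these comparisons are not independent of each other.

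Ndufa6 had normalised signals of 1896, 2135 and 2390 in 3447 SP cells, 2907, 2152 and 5002 in 4346 SP cells and 2186, 2137 and 1967 in 3447 non-SP cells, against 1190, 1316 and 1327 in neurosphere SP and 1084, 942 and 1196 in neurosphere non-SP cells. Every tumour array was above every neurosphere array, and array 3 of the 4346 SP cells was the highest. The log2 difference was 0.73 ± 0.24 (SE, adjusted p = 0.0442) in 3447 SP, 1.29 ± 0.24 (adjusted p = 0.00107) in 4346 SP and 0.96 ± 0.24 (adjusted p = 0.0104) in 3447 non-SP cells. The first of these calls was lost in 11 of the 15 fits that left out 1 array, with an adjusted p of 0.0521 to 0.144, with the replicate number of the neurospheres as a block (adjusted p = 0.0872) and when each array was centred on its median in place of quantile normalization, called median centring here (0.54, adjusted p = 0.315). The other Ndufa6 calls held in all 15 fits and under median centring.

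Atp5g2 had normalised signals of 7188, 7750 and 9100 in 3447 SP cells, 8525, 7028 and 7428 in 4346 SP cells and 8718, 8091 and 7943 in 3447 non-SP cells, against 5097, 6955 and 4828 in neurosphere SP and 5709, 6189 and 5069 in neurosphere non-SP cells. No tumour array was as low as the highest neurosphere array, array 2 of the SP cells. The log2 difference was 0.52 ± 0.14 (SE, adjusted p = 0.0160), 0.46 ± 0.14 (adjusted p = 0.0269) and 0.55 ± 0.14 (adjusted p = 0.0117) in 3447 SP, 4346 SP and 3447 non-SP cells. The adjusted p was above 0.05 in 3 of 15 fits without 1 array for 3447 SP (0.0681 to 0.0831), in 3 for 4346 SP (0.0968 to 0.110) and in 1 for 3447 non-SP cells (0.0513, without array 1 of that group). Under median centring all 3 calls were lost, at 0.22 (adjusted p = 0.651), 0.64 (adjusted p = 0.0885) and 0.73 (adjusted p = 0.0569), and without normalization the 3447 SP call was lost (adjusted p = 0.0556). Its other probe sets had low signals, and 1 of them moved the opposite way in each comparison. Atp5g1 and Atp5g3, which encode the other copies of the ring subunit, were called in no comparison.

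Cox5a had normalised signals of 4234, 4019 and 4125 in 3447 SP cells, 4033, 3930 and 4266 in 4346 SP cells and 4240, 4890 and 4654 in 3447 non-SP cells, against 6643, 5929 and 5910 in neurosphere SP and 6896, 5884 and 5398 in neurosphere non-SP cells. All 9 tumour arrays were below all 6 neurosphere arrays. The log2 difference was -0.57 ± 0.12 (SE, adjusted p = 0.00275), -0.59 ± 0.12 (adjusted p = 0.00187) and -0.39 ± 0.12 (adjusted p = 0.0290), in the same order of groups. The SP calls held with any 1 array left out, and the non-SP call was lost in 4 of 15 such fits (adjusted p 0.0577 to 0.143). Under median centring the 3447 SP call held, and the 4346 SP and non-SP calls were lost, at -0.41 (adjusted p = 0.319) and -0.22 (adjusted p = 0.661). Its other probe sets had log2 differences of -0.84 and -0.67 in 3447 SP cells and of -0.43 and -0.44 in 4346 SP cells.

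Uqcrc1 had normalised signals of 441, 521 and 503 in 3447 SP cells and 572, 665 and 526 in 4346 SP cells, against 1119, 1150 and 984 in neurosphere SP cells. Both tumour SP groups lay entirely below the neurosphere SP cells, by 2.18-fold and 1.83-fold on the scale with the added 16. The log2 difference was -1.13 ± 0.24 (SE, adjusted p = 0.00298) and -0.87 ± 0.24 (adjusted p = 0.0138), and both calls held with any 1 array left out. Under median centring the 4346 SP difference was -0.66 and no longer called (adjusted p = 0.219), and that call was also lost with the compared groups fitted alone. Between non-SP cells, with 573, 477 and 733 in line 3447 against 1062, 712 and 651 in neurospheres, the groups overlapped and the difference of -0.42 ± 0.24 was not called (adjusted p = 0.244).

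The promoters of these 4 genes are shown as examples of genes called higher (Ndufa6 and Atp5g2) and lower (Cox5a and Uqcrc1), chosen after their values were seen. Each window runs from 250 bases before to 50 bases after the annotated start, 5′ to 3′ on the strand of the gene, from RefSeq on GRCm38.p6. Ndufa6 lies on the minus strand at chr15:82354242-82354541, Atp5g2 on the minus strand at chr15:102670998-102671297, Cox5a on the plus strand at chr9:57520982-57521281 and Uqcrc1 on the plus strand at chr9:108936398-108936697. Capitals mark matches on either strand to the NRF1 motif, which reads GCGC, any base and then TGCGC.
Ndufa6: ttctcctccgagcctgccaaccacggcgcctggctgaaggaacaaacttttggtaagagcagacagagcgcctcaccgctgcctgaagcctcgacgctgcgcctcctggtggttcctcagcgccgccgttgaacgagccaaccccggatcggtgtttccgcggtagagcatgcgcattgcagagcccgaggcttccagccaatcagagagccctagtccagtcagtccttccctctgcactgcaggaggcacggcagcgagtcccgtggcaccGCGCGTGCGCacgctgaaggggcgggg
Atp5g2: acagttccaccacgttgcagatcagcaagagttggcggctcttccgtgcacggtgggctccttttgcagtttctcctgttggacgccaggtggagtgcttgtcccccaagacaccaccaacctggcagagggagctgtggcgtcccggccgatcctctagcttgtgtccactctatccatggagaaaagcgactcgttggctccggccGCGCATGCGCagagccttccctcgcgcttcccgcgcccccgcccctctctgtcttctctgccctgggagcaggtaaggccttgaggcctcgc
Cox5a: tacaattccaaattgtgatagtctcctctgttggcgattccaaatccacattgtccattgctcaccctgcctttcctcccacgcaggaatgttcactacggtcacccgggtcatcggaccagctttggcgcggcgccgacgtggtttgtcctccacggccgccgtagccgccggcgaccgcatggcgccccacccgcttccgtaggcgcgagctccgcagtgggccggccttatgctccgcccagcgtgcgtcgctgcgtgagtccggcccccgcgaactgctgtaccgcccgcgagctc
Uqcrc1: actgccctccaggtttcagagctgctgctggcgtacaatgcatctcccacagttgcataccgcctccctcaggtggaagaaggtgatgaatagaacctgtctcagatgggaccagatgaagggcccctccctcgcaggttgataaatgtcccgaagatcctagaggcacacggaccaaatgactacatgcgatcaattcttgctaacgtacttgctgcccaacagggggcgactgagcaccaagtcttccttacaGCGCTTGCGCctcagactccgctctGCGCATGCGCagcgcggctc
Ndufa6 and Atp5g2 each held 1 match, Uqcrc1 held 2 and Cox5a held 0, so a match was found beside both directions of change. None of the 4 windows held the ETS motif, CCGGAAG, or the YY1 motif, which says only that these letters are not in these windows.

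A promoter window was found for 74 of the 91 genes. The NRF1 letters stood in 17 of them (23.0%), against 1402 of 27025 genes with a window in the table (5.19%). The ETS letters stood in 19 (25.7%, against 9.93%), and the YY1 letters in 7 (9.46%, against 1.64%). Any of the 3 motifs, searched on both strands with overlaps allowed, was found for 37 of 74 genes, against 15.1% of all genes. A gene with several windows was counted once, if any of them matched. GC content had a median of 59.0% in these windows and 52.7% in all windows. The reference set takes in genes that were not tested here, and it was not matched to the 74 genes for GC content. The matches describe letters and are not evidence of binding.

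**Figure D1:**
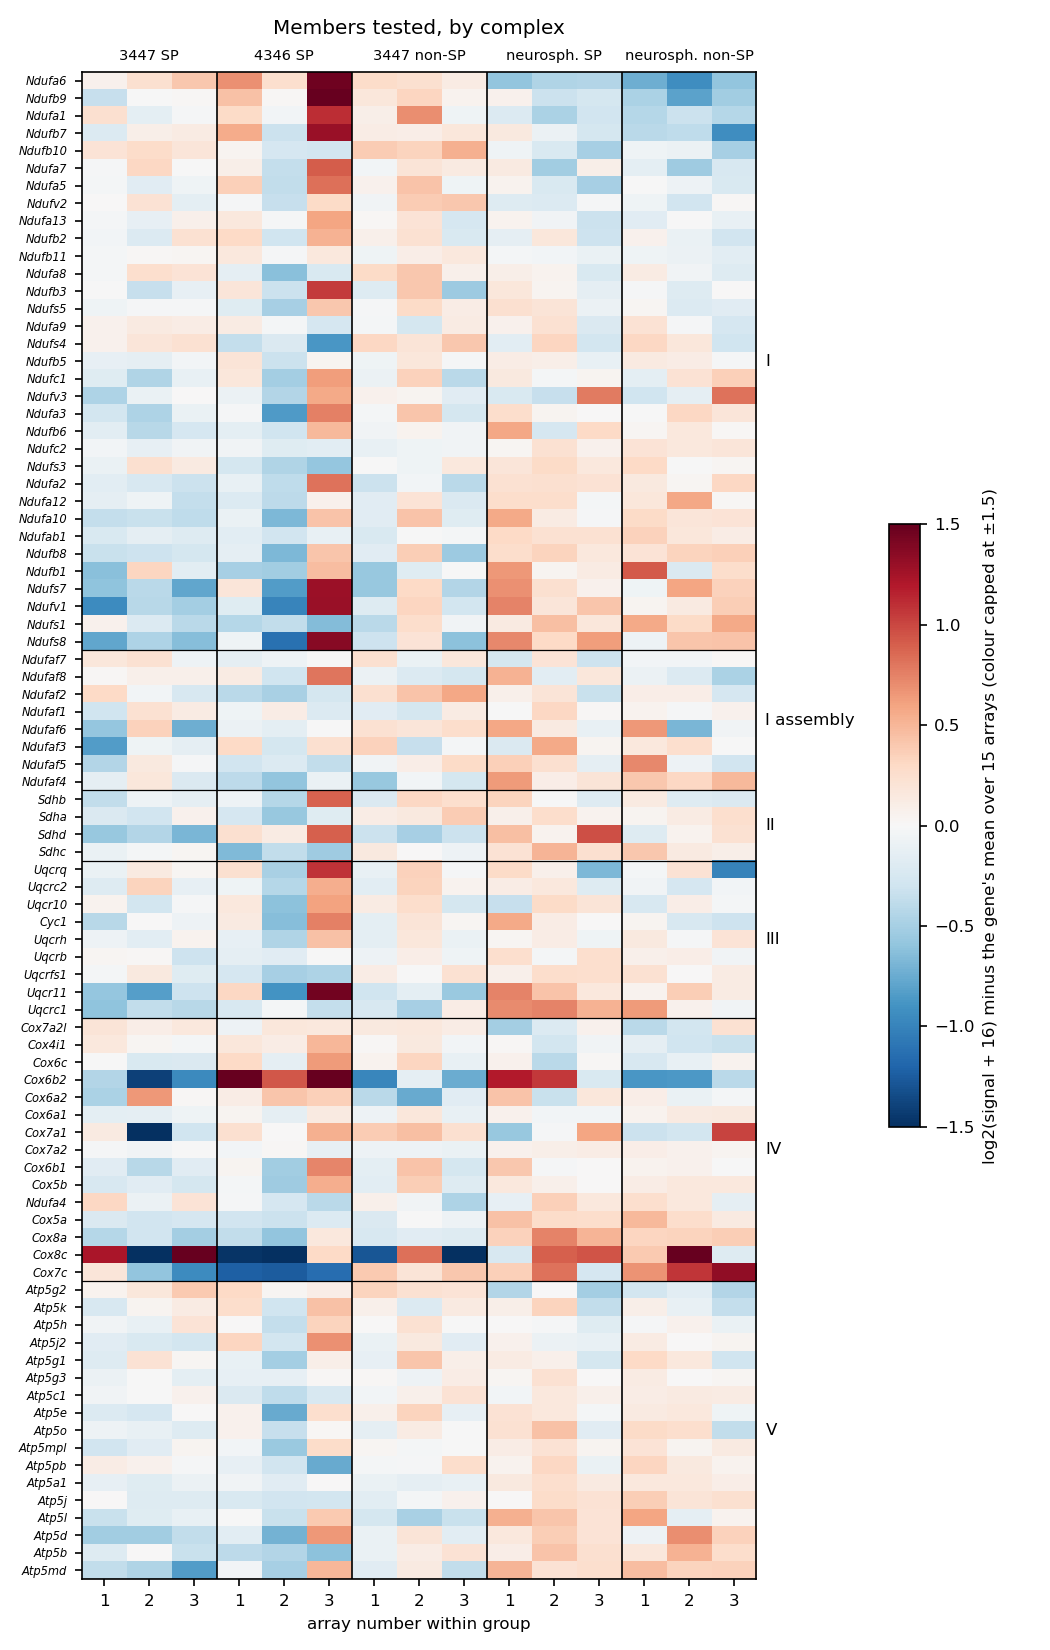
Normalised log2(signal + 16) of each of the 86 genes tested on each array, minus the mean of that gene over the 15 arrays, with rows ordered by complex and columns by group; the colour scale stops at ±1.5. Array 3 of the 4346 SP cells is above the mean of its group for 69 genes and array 2 for 12.

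In 3447 SP cells the mean level of complexes I to V was below that of neurosphere SP cells. It was below under median centring too. That centring also lowered the median difference of all genes in this comparison, so the sign under it is no separate support. Averaged over its genes, complex II had a mean log2(signal + 16) of 10.98 ± 0.07 in 3447 SP, 11.13 ± 0.30 in 4346 SP and 11.20 ± 0.06 in 3447 non-SP cells, against 11.46 ± 0.04 in neurosphere SP and 11.28 ± 0.03 in neurosphere non-SP cells (SD, n = 3 arrays each). All 3 arrays of 3447 SP cells lay below all 3 of neurosphere SP cells, and the 4346 SP arrays overlapped them. Complex III had 11.39 ± 0.05, 11.54 ± 0.46 and 11.51 ± 0.10 in the tumour groups, against 11.73 ± 0.12 and 11.55 ± 0.11 in neurosphere SP and non-SP cells. The pattern was like that of complex II, with only the 3447 SP cells apart from their neurosphere counterpart.

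Complex I averaged 11.55 ± 0.04 in 3447 SP, 11.71 ± 0.43 in 4346 SP and 11.70 ± 0.16 in 3447 non-SP cells, against 11.72 ± 0.09 in neurosphere SP and 11.67 ± 0.03 in neurosphere non-SP cells. Complex IV averaged 10.46 ± 0.23, 10.64 ± 0.27 and 10.56 ± 0.19 in the tumour groups, against 10.81 ± 0.03 and 10.76 ± 0.06. Complex V averaged 12.51 ± 0.03, 12.53 ± 0.25 and 12.64 ± 0.05, against 12.74 ± 0.12 and 12.74 ± 0.09. In each of these complexes the 3447 SP arrays lay entirely below the neurosphere SP arrays, with mean log2 differences of -0.17, -0.35 and -0.23. In complex IV the median over its 15 genes was -0.12, and Cox6b2, a gene of low signal, was at -1.61. The complex I assembly factors overlapped in every comparison. These means carry no test. Under median centring, the non-SP difference of line 3447 turned positive for complexes II, III and V (0.084, 0.15 and 0.089).

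**Figure D2:**
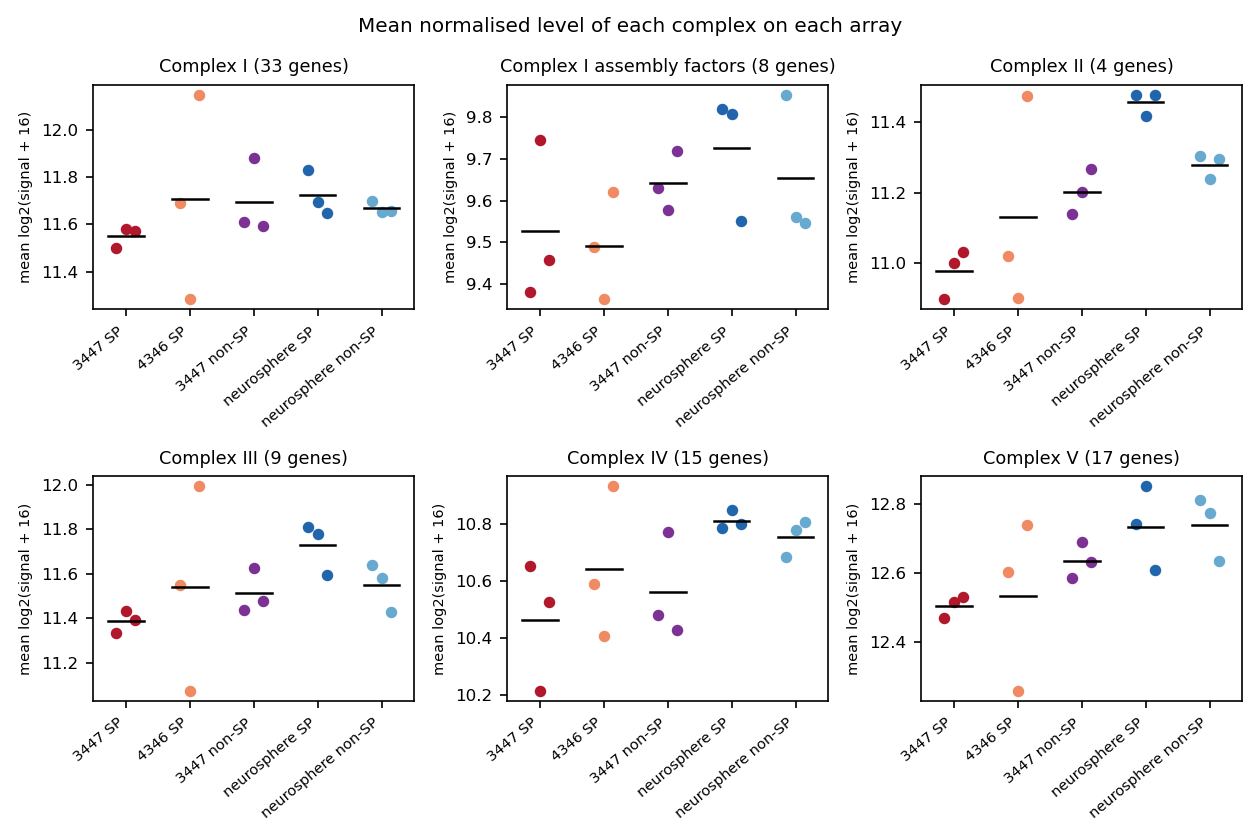
Mean log2(signal + 16) over the genes of each complex, 1 point per array and a line at the mean of each group, in 6 panels. The 3447 SP points lie below the neurosphere SP points for complexes I, II, III, IV and V, and the 4346 SP points spread most for complexes I and III (SD 0.43 and 0.46).

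Between 3447 SP cells and neurosphere SP cells, 13 of the 86 genes were called, 3 higher and 10 lower. This was 15.1%, against 19.6% of all 11908 genes (10.7% higher and 8.96% lower), so the share called was below the background. The median log2 difference over the 86 genes was -0.20, against -0.03 over all genes, and 63 of 86 (73.3%) were below 0, against 52.2% of all genes. Groups did not overlap for 36 genes (41.9%, against 36% of all genes), 30 of them lower and 6 higher, where all genes gave 17.8% lower and 18.2% higher. Median centring gave a median of -0.43 against -0.18 for all genes, and no normalization gave 1 higher and 12 lower calls in place of 3 and 10. Under median centring 7 of the 13 calls were lost, those of Ndufa6, Ndufb10, Ndufab1, Atp5g2, Atp5a1, Atp5b and Atp5l.

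In complex I, 2 of the 33 genes tested were called higher and 1 lower (9.09% called, against 19.6% of all genes). Besides Ndufa6, Ndufb10, an accessory subunit of the membrane arm, had signals of 5887, 6181 and 5782 in 3447 SP cells, against 4859, 4340 and 3603 in neurosphere SP cells. The groups did not overlap and the log2 difference was 0.49 ± 0.15 (SE, adjusted p = 0.0286), but the call was lost in 5 of 15 fits without 1 array (adjusted p 0.0532 to 0.128) and with the neurosphere block (adjusted p = 0.151). Ndufab1, the mitochondrial acyl carrier protein, had 3321, 3527 and 3406 in 3447 SP cells, against 4760, 4568 and 4565. Its tumour arrays were all lower, by -0.44 ± 0.12 (adjusted p = 0.0196), with the call lost in 3 of 15 fits without 1 array (adjusted p 0.0558 to 0.0688).

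Of the 6 core subunits of complex I tested, 0 were called here. Ndufs8, an iron-sulphur subunit, had 878, 1096 and 974.5 in 3447 SP cells, against 2523, 1874 and 2369 in neurosphere SP cells. Ndufv1, the subunit that binds NADH, had 647, 945 and 883, against 2127, 1432 and 1689. For both, all 3 tumour arrays were below all 3 neurosphere arrays, and the log2 differences of -1.18 ± 0.43 and -1.07 ± 0.40 had an adjusted p of 0.0648 and 0.0761. Ndufs7, another iron-sulphur subunit, also did not overlap (-0.93 ± 0.39, adjusted p = 0.108). These 3 were named after their values were seen and were the core subunits with an unadjusted p under 0.05 in limma, against 32.3% of all genes. The other core subunits gave narrower differences, of -0.43 ± 0.22 for Ndufs1 (adjusted p = 0.181), -0.12 ± 0.13 for Ndufs3 (adjusted p = 0.564) and 0.16 ± 0.17 for Ndufv2 (adjusted p = 0.577).

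In complex II, Sdhd, 1 of the 2 membrane anchor subunits, had 1592, 1746 and 1472 in 3447 SP cells, against 3258, 2470 and 4654 in neurosphere SP cells. Every tumour array was lower, 2.08-fold on average, with a log2 difference of -1.06 ± 0.24 (SE, adjusted p = 0.00456) that held with any 1 array left out. Its other probe set differed by -0.62. The other anchor, Sdhc, had 2029, 2129 and 2220 against 2529, 3107 and 2580 and was not called (-0.36 ± 0.16, adjusted p = 0.143). Sdha, the flavoprotein subunit, and Sdhb, the iron-sulphur subunit, differed by -0.28 ± 0.15 and -0.23 ± 0.28 and were not called.

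In complex IV, 3 of 15 genes were called and all were lower. This was 20%, near the 19.6% of all genes. Cox8a, a small membrane subunit in its widely expressed form, had 1317, 1458 and 1247 in 3447 SP cells, against 2261, 2983 and 2532 in neurosphere SP cells. The groups were well apart, with a log2 difference of -0.94 ± 0.20 (SE, adjusted p = 0.00298) that held with any 1 array left out. Cox6b2, known as a testis form of subunit VIb, had 53.1, 19.6 and 32.4, against 198, 181 and 64.4. The signals were low in both groups and array 3 of the neurosphere SP cells was near the tumour arrays, with a log2 difference of -1.61 ± 0.43 (adjusted p = 0.0142) that was lost in 3 of 15 fits without 1 array (adjusted p 0.0584 to 0.0718) and without normalization (adjusted p = 0.0597). Cox5a was the remaining call.

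In complex V, 5 of 17 genes were called (29.4%, against 19.6% of all genes), 4 of them lower besides the higher Atp5g2. Atp5a1, the alpha subunit of the catalytic head, had 12652, 12186 and 12950 in 3447 SP cells, against 15322, 16452 and 15161 in neurosphere SP cells. The change was small and tight, -0.31 ± 0.07 (SE, adjusted p = 0.00324), and its other probe sets differed by -0.60 and -0.40. Atp5md, a small subunit of the membrane part, had 4910, 4634 and 3526, against 9029, 7356 and 7543, without overlap. Its log2 difference was -0.88 ± 0.20 (adjusted p = 0.00603). Both calls held with any 1 array left out. Atp5b, the catalytic beta subunit, at -0.43 ± 0.13 (adjusted p = 0.0335), and Atp5l, a membrane subunit, at -0.59 ± 0.20 (adjusted p = 0.0483), were lost in 4 and 11 of 15 fits without 1 array, and Atp5b also with the neurosphere block (adjusted p = 0.203). Without array 3 of the 3447 SP cells, 7 of the 86 genes were called in all.

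Between 4346 SP cells and the same neurosphere SP arrays, 22 of the 86 genes were called, 5 higher and 17 lower. This was 25.6%, against 24.3% of all genes, and so near the share of all genes. Of all genes, 14% were called higher and 10.3% lower. The median log2 difference over the 86 genes was -0.15, against 0.02 over all genes, and 57 (66.3%) were below 0, against 49% of all genes. Groups did not overlap for 24 genes (27.9%, against 36.9% of all genes), 19 of them lower and 5 higher, where all genes gave 17.4% lower and 19.4% higher. Under median centring, the members' median turned to 0.06 against 0.19 for all genes, 38 genes were below 0, and 4 calls were made, 3 higher and 1 lower. Of the 22 calls, 18 were lost under that centring, and those of Ndufa6, Ndufa1, Ndufb9 and Cox7c held.

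In complex I, Ndufs3, a core subunit, had 5565, 4873 and 4450 in 4346 SP cells, against 7557, 8165 and 7489 in neurosphere SP cells. The groups were well apart, with a log2 difference of -0.64 ± 0.13 (SE, adjusted p = 0.00143) that held with any 1 array left out. Ndufs1, a core iron-sulphur subunit, had 890, 933 and 761, against 1327, 1661 and 1357, also without overlap. Its difference of -0.74 ± 0.22 (adjusted p = 0.0213) was lost without array 3 of the 4346 SP cells (adjusted p = 0.0587), without array 2 of the neurosphere SP cells (adjusted p = 0.0826) and with the neurosphere block (adjusted p = 0.0669). Ndufab1, at -0.44 ± 0.12 (adjusted p = 0.0163), and Ndufc2, an accessory subunit, at -0.24 ± 0.07 (adjusted p = 0.0258), were lower by small steps. Ndufaf4, an assembly factor, was lower by -0.67 ± 0.21 (adjusted p = 0.0294). These calls were lost in 1, 3 and 3 of the 15 fits without 1 array, and that of Ndufc2 also with the neurosphere block (adjusted p = 0.108).

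Among the complex I genes called higher, Ndufa1, an accessory subunit, had 2777, 2211 and 4927 in 4346 SP cells, against 1978, 1639 and 1861 in neurosphere SP cells. Ndufb9, another accessory subunit, had 3679, 2747 and 8577, against 2839, 2165 and 2249, and its groups overlapped, so it was named after its values were seen. For both, array 3 of the 4346 SP cells, the array with the high 3' to 5' ratio, was by far the highest. The log2 differences were 0.77 ± 0.26 (SE, adjusted p = 0.0399) and 0.88 ± 0.30 (adjusted p = 0.0411), and without that array the adjusted p was 0.182 and 0.167. With the neurosphere block it was 0.122 and 0.189.

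In complex II, Sdhc had 1362, 1682 and 1491 in 4346 SP cells, against 2529, 3107 and 2580 in neurosphere SP cells. Every tumour array was lower, 1.80-fold on average, with a log2 difference of -0.85 ± 0.16 (SE, adjusted p = 0.00132) that held with any 1 array left out. Sdha had 3301, 2650 and 3485, against 4150, 4754 and 4108, also without overlap (-0.47 ± 0.15, adjusted p = 0.0317), but was lost in 4 of 15 fits without 1 array (adjusted p 0.0510 to 0.113) and with the neurosphere block (adjusted p = 0.147). Sdhd, at 2805, 2593 and 4440 against 3258, 2470 and 4654, overlapped and was not called (-0.07 ± 0.24, adjusted p = 0.862). In complex III, Uqcrfs1, the Rieske iron-sulphur protein, had 2646, 2224 and 2296, against 3327, 3797 and 3758. It was lower on every array by -0.60 ± 0.14 (adjusted p = 0.00638), and the call held with any 1 array left out. Uqcrb, the complex III gene with the highest mean signal here, differed from neurospheres by -0.24 ± 0.11, -0.26 ± 0.11 and -0.05 ± 0.11 in 3447 SP, 4346 SP and 3447 non-SP cells and was not called.

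In complex IV, Cox7c, a small membrane subunit, had the widest difference, with 80.8, 80.0 and 86.9 in 4346 SP cells, against 275, 384 and 175 in neurosphere SP cells. The 4346 arrays were alike and all lower, 2.85-fold on average, with a log2 difference of -1.51 ± 0.32 (SE, adjusted p = 0.00278). Cox8a had 1373, 1175 and 1991, against 2261, 2983 and 2532, without overlap (-0.80 ± 0.20, adjusted p = 0.00774). Both calls held with any 1 array left out. The Cox7c signals were low, its call was lost with the mean of all probe sets, and its other probe set differed by -0.48. Cox4i1, the widely expressed form of subunit IV, was higher, with 8650, 8284 and 10873 against 7755, 6332 and 7373. Its log2 difference of 0.37 ± 0.12 (adjusted p = 0.0342) was lost in 3 of 15 fits without 1 array (adjusted p 0.0555 to 0.141) and with the neurosphere block (adjusted p = 0.220).

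In complex V, 6 of 17 genes were called (35.3%, against 24.3% of all genes), Atp5g2 higher and 5 lower. Of those 5, 3 are the alpha, beta and gamma subunits of the catalytic head. Atp5b had 5113, 4957 and 4375 in 4346 SP cells, against 7186, 9058 and 7943 in neurosphere SP cells. It was lower on every array, 1.67-fold on average, by -0.74 ± 0.13 (SE, adjusted p = 0.000809). Atp5a1 was lower by -0.25 ± 0.07 (adjusted p = 0.0123) and Atp5c1, the gamma subunit, by -0.35 ± 0.09 (adjusted p = 0.0136). Atp5j, a coupling subunit of the stalk, had 5951, 5733 and 5765, against 6992, 8475 and 8123 (-0.43 ± 0.11, adjusted p = 0.00827). Atp5pb, the stalk subunit b, was lower by -0.48 ± 0.16 (adjusted p = 0.0369). The Atp5b and Atp5j calls held with any 1 array left out, Atp5a1, Atp5c1 and Atp5pb were lost in 1, 1 and 3 of 15 such fits, and Atp5c1 also with the neurosphere block (adjusted p = 0.0880). Under median centring all 5 calls were lost, with the difference of Atp5a1 at -0.00040, that of Atp5c1 at -0.16 and that of Atp5b at -0.56 (adjusted p = 0.171), and without normalization Atp5a1 was lost too (adjusted p = 0.115). Without array 2 of the neurosphere SP cells, 14 of the 86 genes were called in all.

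**Figure D3:**
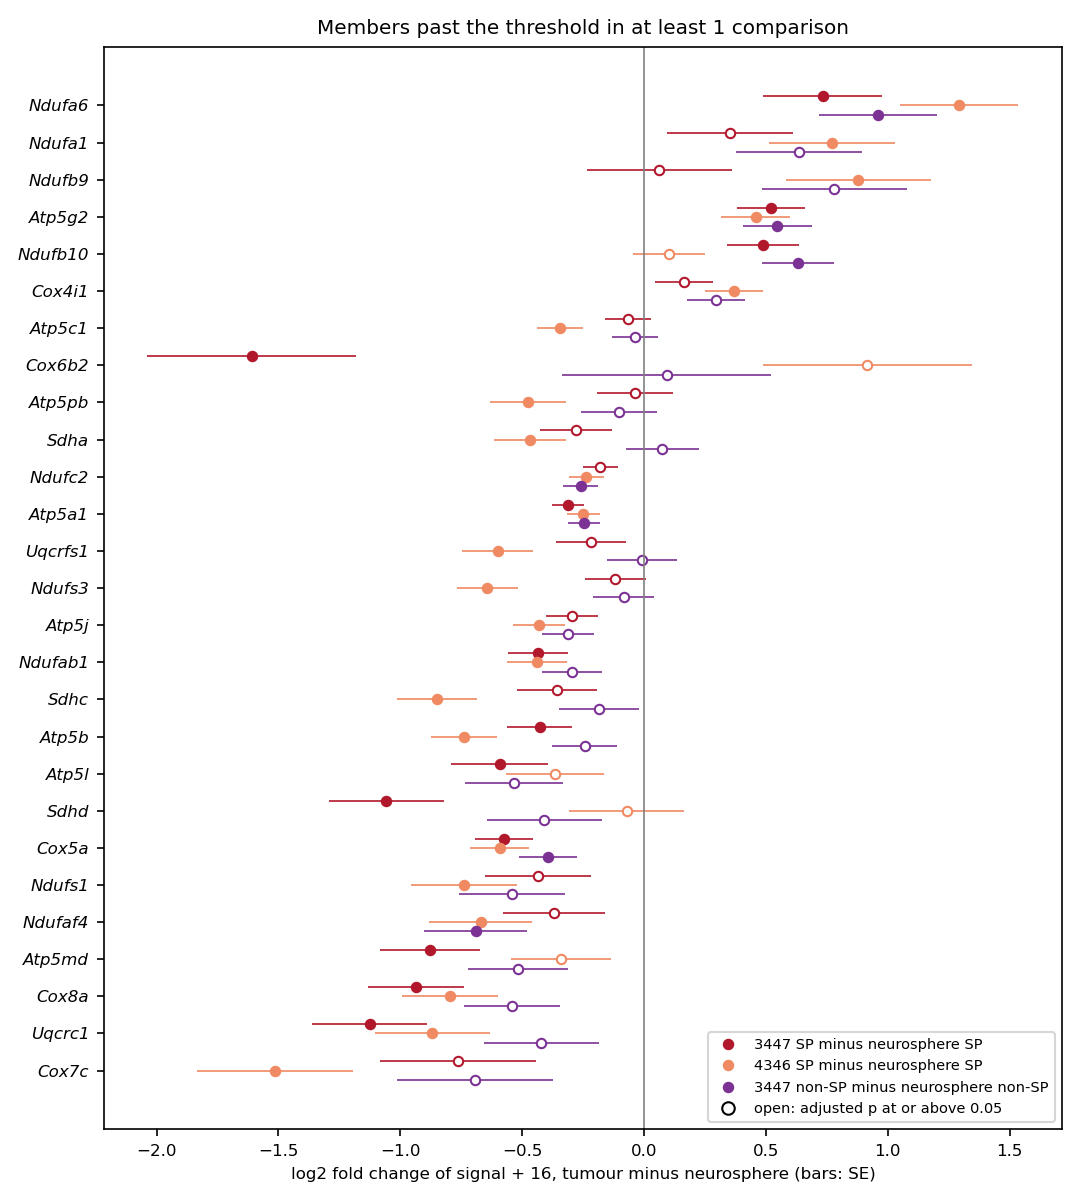
Log2 difference with SE for the 27 genes called in at least 1 of the 3 comparisons of tumour with neurosphere cells, with filled points for an adjusted p under 0.05. Ndufa6 and Atp5g2 lie above 0 with filled points in all 3 comparisons, and Cox5a and Atp5a1 below 0; under median centring the non-SP difference of Atp5a1 turned to 0.032.

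Between non-SP cells of line 3447 and of neurospheres, which share no array with the SP cells compared above, 7 of the 86 genes were called, 3 higher and 4 lower. This was 8.14%, against 19.4% of all genes (11.2% higher and 8.21% lower). The median log2 difference was -0.06, against 0.04 over all genes, and 52 (60.5%) were below 0, against 47.1%. Under median centring, the members' median was 0.12 against 0.18 for all genes, 27 were below 0, and 5 of the 7 calls were lost, those of Ndufa6 and Ndufb10 being the ones that held. Groups did not overlap for 26 genes (30.2%, against 38.8% of all genes), 17 of them lower and 9 higher, where all genes gave 17.5% lower and 21.3% higher.

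The genes called higher were Ndufa6, Ndufb10 and Atp5g2, which were also those called higher in 3447 SP cells. The neurosphere SP and non-SP samples are paired by number, so the comparisons with them are not independent of each other. Ndufb10 had 6640, 6425 and 7365 in 3447 non-SP cells, against 4886, 4783 and 3596 in neurosphere non-SP cells. Its arrays were all higher, by 0.63 ± 0.15 (SE, adjusted p = 0.00622), and the call held with any 1 array left out. The genes called lower were Cox5a, Atp5a1, Ndufc2 and Ndufaf4. Atp5a1 was lower by -0.25 ± 0.07 (adjusted p = 0.0150) and Ndufc2 by -0.26 ± 0.07 (adjusted p = 0.0179), and both turned to 0.032 and 0.015 under median centring. Ndufaf4 had 1146, 1667 and 1429, against 2277, 2122 and 2405, without overlap. Its difference of -0.69 ± 0.21 (adjusted p = 0.0293) was lost in 5 of 15 fits without 1 array (adjusted p 0.0510 to 0.137). Ndufc2 was lost in 2 such fits and with the neurosphere block (adjusted p = 0.0837). Without array 1 of the 3447 non-SP cells 3 genes were called, and without array 3 of the 4346 SP cells, which enters only through the shared estimate of spread, 17 were.

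Setting SP against non-SP cells asks which transcripts mark the dye-excluding fraction. In line 3447, 0 of the 86 genes were called by limma, against 0.0084% of all genes, and 3 had an unadjusted p under 0.05, against 7.21% of all genes. The differences were small but mostly on 1 side: the median was -0.13, against -0.01 over all genes, and 69 of 86 (80.2%) were below 0, against 51.7% of all genes. By complex, 27 of 33 genes of complex I, 4 of 4 of complex II, 9 of 9 of complex III, 9 of 15 of complex IV and 16 of 17 of complex V were below 0. Groups did not overlap for 13 genes (15.1%, against 17.5% of all genes), 11 of them lower and 2 higher, where all genes gave 8.44% lower and 9.07% higher. Under median centring the median was -0.51 against -0.30 for all genes. The count below 0 carries no test, since the genes share arrays, and 3447 SP array 3 has the highest median signal of the series.

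Cox7c had 241, 134 and 102 in 3447 SP cells, against 282, 243 and 286 in 3447 non-SP cells. The groups did not overlap and the log2 difference was -0.78 ± 0.32 (SE, adjusted p = 0.646 in limma). Sdha had 3388, 3229 and 4136, against 4257, 4370 and 5142, also lower on every array (-0.36 ± 0.15, adjusted p = 0.648). Cox7a1, a muscle form of a complex IV subunit, had 67.4, 1.70 and 45.3, against 82.6, 87.2 and 73.2. Its difference of -1.11 ± 0.52 (adjusted p = 0.691) rests on low signals and most of all on array 2. Ndufaf2, an assembly factor, and Atp5md followed, at -0.41 ± 0.20 and -0.42 ± 0.20 (adjusted p = 0.705 for both).

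In neurospheres, 0 of the 86 genes were called between SP and non-SP cells, against 0.0168% of all genes, and 2 had an unadjusted p under 0.05 in limma, against 3.59% of all genes. The median difference was 0.03, against 0.04 over all genes, and 38 of 86 (44.2%) were below 0, against 43% of all genes. Groups did not overlap for 3 genes, Ndufb7, Ndufb9 and Cox6b2, all higher in SP cells (3.49%, against 7.6% of all genes, 4.37% higher and 3.23% lower). Cox6b2 had 198, 181 and 64.4 in neurosphere SP cells, against 35.1, 35.6 and 55.2 in neurosphere non-SP cells. The SP arrays were all higher, array 3 by little, with a log2 difference of 1.39 ± 0.43 (SE, adjusted p = 0.955). Cox7c had 275, 384 and 175, against 345, 462 and 554, lower in the SP cells of all 3 pairs of the same number though the groups overlap (-0.72 ± 0.32, adjusted p = 1.00). With the replicate number of the neurospheres as a block, 0 of the 86 genes were called too, and the adjusted p was 0.775 for Cox7c and 0.474 for Cox6b2. Sdhd, Uqcrc1 and Ndufb7, an accessory subunit of complex I, followed at 0.46 ± 0.24, 0.45 ± 0.24 and 0.51 ± 0.28, none called.

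The test of whether the SP difference depends on origin called 0 of the 86 genes and 0 of all genes in limma, and 1 of the 86 had an unadjusted p under 0.05, against 2.23% of all genes. That gene was Cox6b2, at -1.70 ± 0.61 (SE, adjusted p = 0.999). Uqcrc1, Sdhd, Ndufb9 and Sdha followed at -0.70 ± 0.33, -0.65 ± 0.33, -0.72 ± 0.42 and -0.35 ± 0.21. The median over the 86 genes was -0.15, against -0.05 over all genes, and 69 (80.2%) were below 0, against 55.3% of all genes. The contrast contains the SP cells of both origins, so this count restates in part the SP values of line 3447 and of neurospheres given before.

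Between the SP cells of the tumour lines, 3 of the 86 genes were called, 1 higher and 2 lower in line 3447. This was 3.49%, against 1.65% of all genes (0.462% higher and 1.19% lower). In limma, 18 of the 86 reached an unadjusted p under 0.05, against 16.6% of all genes. The median difference was -0.11, against -0.04 over all genes, and 53 (61.6%) were below 0, against 54.1% of all genes. Cox6b2 had 53.1, 19.6 and 32.4 in 3447 SP cells, against 298, 163 and 388 in 4346 SP cells. The groups did not overlap, with a log2 difference of -2.53 ± 0.43 (SE, adjusted p = 0.00478) that held with any 1 array left out. The 3447 SP signals lay near or below the array median, so the size of this difference is uncertain. Sdhd had 1592, 1746 and 1472, against 2805, 2593 and 4440, without overlap, and differed by -0.99 ± 0.24 (adjusted p = 0.0464). Its other probe set differed by 0.04, and the call was lost in 11 of 15 fits without 1 array, with an adjusted p of up to 0.941. Ndufs3 had 6223, 7916 and 7331, against 5565, 4873 and 4450, and was higher by 0.53 ± 0.13 (adjusted p = 0.0459), a call lost in 12 of 15 such fits (adjusted p 0.0513 to 0.158). With array 3 of both groups left out, a choice made after the data were seen, 0 of the 86 were called, and the adjusted p of Cox6b2 was 0.0865. Groups did not overlap for 15 genes (17.4%, against 19.6% of all genes), 12 of them higher and 3 lower in 3447 SP cells, where all genes gave 9.01% higher and 10.6% lower.

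The 3 arrays of 4346 SP cells differed from each other across the respiratory chain. Array 3 was above the group mean for 69 of 86 genes, with a median deviation of 0.33 log2 units, and array 2 was above it for 12 of 86, with a median of -0.32. Over all genes the medians were 0.00 on both arrays. Array 3 was the highest and array 2 the lowest for 61 of 86 genes (70.9%), against 23% of all genes tested. Array 3 is also the array with the 3' to 5' ratio of 5.30 for actin, while array 2 had 3.22, and the part of RNA quality in this order was not tested.

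The widest range among the 86 genes was that of Ndufs8, which had 1452, 690 and 3960 in the 3 arrays of 4346 SP cells, a range of 2.49 log2 units. Uqcr11, a small subunit of complex III, had 1468, 625 and 3246, a range of 2.35, and Ndufv1 and Ndufs7 had ranges of 2.28 and 2.12. In each of them array 2 was lowest and array 3 highest. At the other end, Atp5j, Cox7c and Cox5a ranged by 0.05, 0.10 and 0.12, and all 3 were called against neurospheres. The median SD of the 86 genes was 0.35 in 4346 SP cells, 0.16 in 3447 SP cells, 0.17 in 3447 non-SP cells, 0.20 in neurosphere SP cells and 0.16 in neurosphere non-SP cells. Over all genes it was 0.36 in 4346 SP cells and 0.23 to 0.31 in the other groups, so the 86 genes were as variable as other genes in 4346 SP cells and less variable in the other groups. Of the 86 genes, 46 had their highest SD in 4346 SP cells, against 34.1% of all genes.

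**Figure D4:**
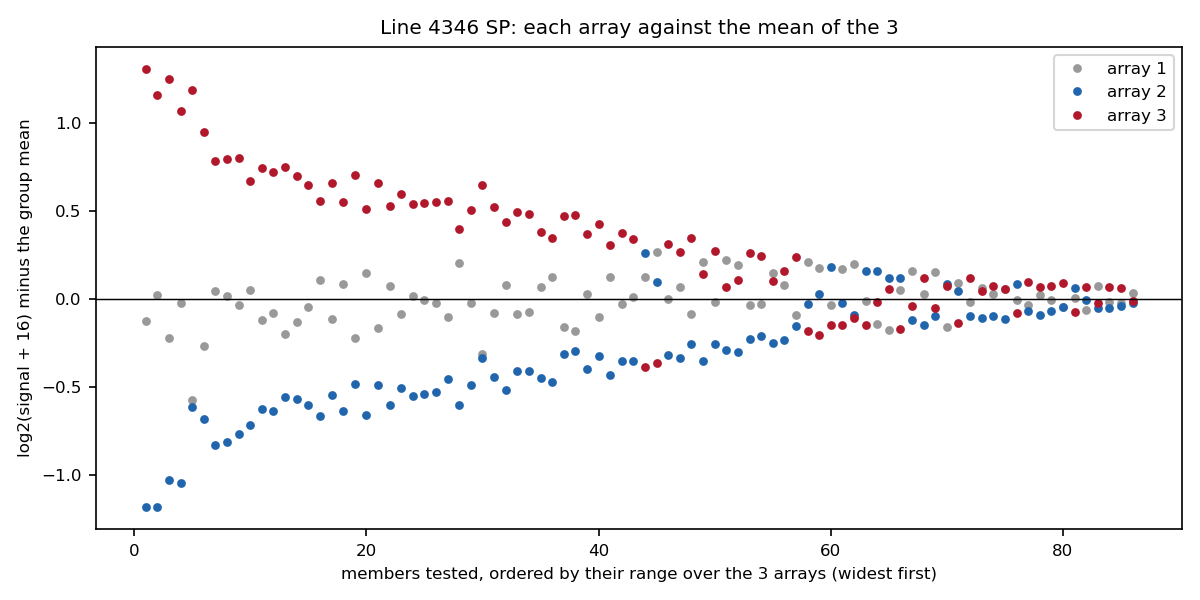
Log2(signal + 16) of each 4346 SP array minus the mean of the 3 arrays, for the 86 genes tested, ordered from the widest range (2.49) to the narrowest (0.05). Array 3 lies above 0 for 69 genes and array 2 above 0 for 12.

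Several complex IV subunits, and Ndufa4, have partner forms that are restricted to a tissue such as muscle or testis or to low oxygen, and 8 such forms are on the array. Cox4i2, Cox7b2, Cox8b and Ndufa4l2 were too low to be tested, with signals of 4.94 to 60.8 for Cox4i2 and 2.97 to 69.0 for Ndufa4l2, the form induced by low oxygen. Cox6a2, a muscle form, had 48.4 to 153 over the 15 arrays and was called in no comparison, and Cox8c, a testis form, had 1.12 to 141 and was called in none. Cox7a1 had 1.70 to 137 and was likewise not called. Only Cox6b2 passed the test, in the pair of comparisons given above. Muscle markers were not among the genes tested, at a summed deposited signal of 20.2 to 266.

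Of their widely expressed partners, Cox6a1 differed by -0.11 ± 0.09, 0.02 ± 0.09 and -0.12 ± 0.09 (SE) from neurospheres in 3447 SP, 4346 SP and 3447 non-SP cells. Cox6b1, the partner of Cox6b2, differed by -0.38 ± 0.24, -0.04 ± 0.24 and -0.03 ± 0.24. Cox7a2 differed by -0.11 ± 0.05, -0.13 ± 0.05 and -0.15 ± 0.05, without overlap in any of them, and Ndufa4 by 0.01 ± 0.18, -0.36 ± 0.18 and -0.23 ± 0.18. None of these was called. Among the partners tested, Cox8a was called lower in both SP comparisons and Cox4i1 higher in the 4346 one.

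**Figure D5:**
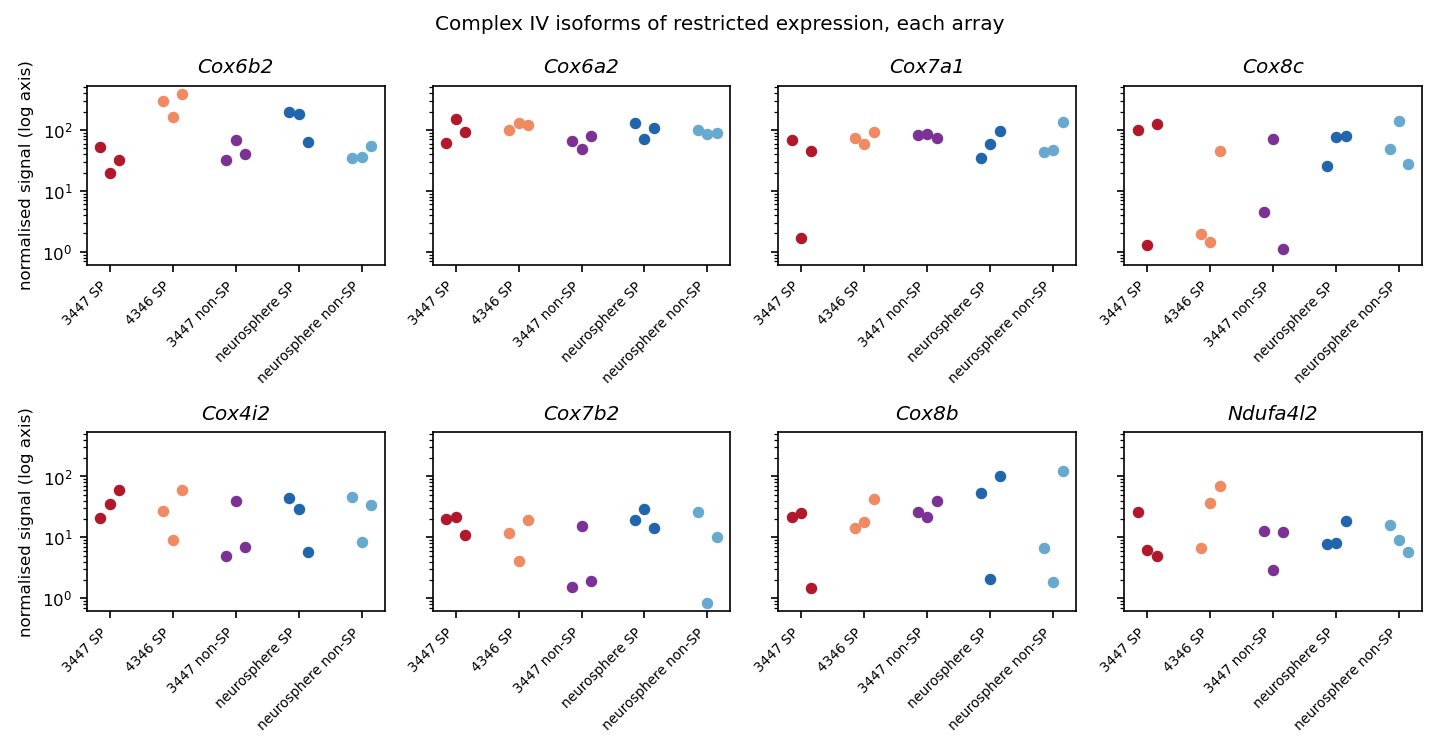
Normalised signal on a log axis of the 8 restricted forms of complex IV subunits, 1 point per array. Cox6b2 lies at 163 to 388 in 4346 SP cells and at 19.6 to 53.1 in 3447 SP cells and the other 7 forms stay at 153 or below on every array.

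Other genes of mitochondrial energy metabolism were described with lists that hold none of the 91 genes. Among 14 regulators of mitochondrial biogenesis, 1 was higher and 2 lower in 3447 SP cells, 2 were lower in 4346 SP cells and 1 was lower in 3447 non-SP cells, against neurospheres. Ppargc1a, the coactivator PGC-1 alpha that drives respiratory gene expression, had 172, 165 and 302 in 3447 SP, 209, 316 and 31.3 in 4346 SP and 111, 74.4 and 93.1 in 3447 non-SP cells, against 546, 1018 and 1073 in neurosphere SP and 554, 379 and 1335 in neurosphere non-SP cells. All 9 tumour arrays were below all 6 neurosphere arrays. The log2 differences were -1.96 ± 0.58 (SE, adjusted p = 0.0263), -2.50 ± 0.58 (adjusted p = 0.00536) and -2.64 ± 0.58 (adjusted p = 0.00420), and the first was lost in 4 of 15 fits without 1 array (adjusted p 0.0773 to 0.0830) and with the neurosphere block (adjusted p = 0.127). Gabpa, the DNA-binding subunit of GABP, had 608, 800 and 553 in 4346 SP cells, against 1313, 1157 and 1427 in neurosphere SP cells, and was lower by -0.99 ± 0.22 (adjusted p = 0.00369), a call lost under median centring (adjusted p = 0.0988). Esrra, a nuclear receptor that works with PGC-1 alpha, was lower by -1.03 ± 0.34 (adjusted p = 0.0463) in 3447 SP cells. Tfb1m, a methyltransferase of mitochondrial ribosomal RNA, was higher there by 0.84 ± 0.25 (adjusted p = 0.0252). Both calls were lost with the neurosphere block (adjusted p = 0.189 and 0.0981) and under median centring (adjusted p = 0.116 and 0.159). They were also lost in 11 and 4 of 15 fits without 1 array (adjusted p 0.0502 to 0.184 and 0.0546 to 0.116). Without normalization the Esrra call was lost as well (adjusted p = 0.170).

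Against neurospheres, of 34 assembly factors outside the symbol rule, 3, 2 and 2 were lower in the same order of groups and 0 were higher by limma, where 7, 6 and 4 had an unadjusted p under 0.05, against 32.3%, 36.6% and 31.7% of all genes. Coa5, an assembly factor of complex IV, was lower in the 3 comparisons by -0.87 ± 0.16, -0.92 ± 0.16 and -0.90 ± 0.16, and each call held with any 1 array left out, but under median centring only that in 3447 SP cells did. Cox15, which makes the haem of complex IV, was lower by -0.61 ± 0.16, -0.84 ± 0.16 and -0.86 ± 0.16, the first lost in 2 of 15 such fits and with the neurosphere block (adjusted p = 0.0817), and all 3 with that centring. Of 16 citrate cycle genes, 1 was higher and 2 lower in 3447 SP, 3 lower in 4346 SP and 2 lower in 3447 non-SP cells. Dlst, a subunit of the oxoglutarate dehydrogenase complex, was lower in all 3, by -0.92 ± 0.25, -1.28 ± 0.25 and -0.87 ± 0.25, with the first lost in 4 and the last in 3 of 15 fits without 1 array, both also with that centring, and all 3 with the mean of all probe sets.

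Among 76 genes of the mitochondrial ribosome, 0, 1 and 0 were higher and 3, 7 and 1 lower by limma in the 3 comparisons, where 10, 14 and 6 had an unadjusted p under 0.05, and Mrpl3, of the large subunit, was lower in each (-1.18 ± 0.23, -0.86 ± 0.23 and -0.88 ± 0.23). The first of these calls held with any 1 array left out, the second was lost in 1 of 15 such fits (adjusted p = 0.0511) and the last in 3 (adjusted p 0.0511 to 0.0613), and both of these were lost under median centring. Of 14 glycolysis genes, 1, 2 and 2 were higher and 0 lower by limma, where 4 had an unadjusted p under 0.05 in each comparison. Pfkm, a phosphofructokinase, had 1110, 916 and 1543 in 3447 SP, 1574, 1381 and 1292 in 4346 SP and 1393, 985 and 1321 in 3447 non-SP cells, against 422, 476 and 778 in neurosphere SP and 489, 439 and 723 in neurosphere non-SP cells. All tumour arrays were above all neurosphere arrays, by 1.09 ± 0.28 (SE, adjusted p = 0.0115), 1.36 ± 0.28 (adjusted p = 0.00215) and 1.16 ± 0.28 (adjusted p = 0.00761). The 3447 SP call was lost in 2 of 15 fits without 1 array (adjusted p 0.0597 to 0.0662) and under median centring (adjusted p = 0.0831). In the comparisons with neurospheres, the share called in each of these lists was below that of all genes, except for 3 of 14 biogenesis genes (21.4%) in 3447 SP cells. It was also below for lists of electron carriers, antioxidants and the cytosolic ribosome. The antioxidant genes Gpx1 in 3447 SP and Prdx3 in 4346 SP cells were lower. Both calls held with any 1 array left out, and that of Prdx3 was lost under median centring (adjusted p = 0.209). Between the tumour lines, 1 of 16 citrate cycle genes (6.25%), 1 of 7 antioxidant genes (14.3%) and 1 of 76 mitochondrial ribosome genes (1.32%) were called, against 1.65% of all genes. They were Pdha1, Gpx1 and Mrpl32. Their calls were lost in 4, 9 and 12 of 15 fits without 1 array. Without normalization each was lost too (adjusted p = 0.0745, 0.0502 and 0.0710).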

How the data were processed

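RNA was amplified with NuGEN Ovation Pico and hybridised to Affymetrix arrays, per the labels' protocols. The deposited intensities are MAS5 signals that the authors computed per array in Affymetrix Expression Console, per the submitters' processing notes, on a linear scale with a trimmed mean of 500. Its version was not given in the sources used here.

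Of 45101 probe sets, 64 controls were left out, 34945 carry 1 symbol, 932 several and 9160 none. Signals were quantile-normalised between arrays in R 4.3.3 with limma 3.58.1, because the array medians differed by 2.23 times, and analysed as log2(signal + 16). Genes above the array median on at least 3 arrays were tested. All 15 arrays shared 1 fit with 5 group means, a trend of spread on level and 10 residual degrees of freedom, and 7 comparisons were made. No arrays held identical values. The script was tested on simulated data.

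The members, lists and tests were chosen with earlier results of these data known. The genes named are, per comparison, up to 10 with the highest and 10 with the lowest change among those called without overlap of groups, the 5 with the smallest p where none was called, the restricted isoforms with their partners, the complex II genes, the brightest gene of each complex and up to 3 genes of each other list. The remaining called genes of 4346 SP cells were named after their values were seen. Replicate numbers pair the neurosphere samples (correlations of deviations 0.577, 0.522 and 0.621) but not the 3447 samples (-0.225, -0.249 and -0.120), and so the neurosphere block is given where it ended a call. Alternatives were other scalings, added constants, filters, probe set choices, fits and blocks, and each array left out.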

Additional observations from a re-analysis of the deposited data

How the results depend on the processing

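Leaving out 1 array at a time gave 7 to 19 calls among the 86 genes in 3447 SP against neurosphere SP cells (13 with all arrays), 14 to 24 in 4346 SP cells (22), 3 to 17 in 3447 non-SP cells (7) and 1 to 8 between 3447 SP and 4346 SP cells (3). Comparing SP with non-SP cells, and the interaction, stayed at 0 to 0. The differences of the complex means moved by less than 1 SD in 630 of 630 such leave-outs. Leaving 1 array out of a group of 3 cannot move them by more, so this count says nothing about their stability.

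The replicate block in neurospheres gave 12, 18, 8 and 3 calls in those 4 comparisons. The replicate block in both origins gave 5, 12, 3 and 0, though the 3447 numbers do not pair samples. Calls numbered 7, 13, 4 and 1 without the trend of spread on level. With the compared groups alone they numbered 20, 6 and 1 in 3447 SP, in 4346 SP and between the lines. Arrays centred on their medians gave 4 calls for 4346 SP and 2 for 3447 non-SP cells. The mean of all probe sets gave 14 in 4346 SP cells and 1 between the lines. Array weights gave 17 in 3447 non-SP cells. Between the lines, no normalization, an added constant of 1 and no filter gave 1 each, and a filter on all 15 arrays gave 0. With array 3 of both tumour SP groups left out, chosen after seeing the data, calls were 17 in 3447 non-SP cells and 0 between the lines. The cause of these changes in count was not tested.

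With arrays centred on their medians, 3 calls reversed: Ndufc2 to 0.015 and Atp5a1 to 0.032 in 3447 non-SP cells, and Rps10, a cytosolic ribosomal protein gene, to -0.074 in 3447 SP cells. The median of all genes then shifted to -0.18, 0.19, 0.18 and -0.38 in those 4 comparisons and to -0.30 between 3447 SP and non-SP cells, and the members' median relative to it was -0.25, -0.14, -0.06, -0.15 and -0.20. The means of complexes I, II, III, IV and V and of the 86 genes together then differed by -0.40, -0.69, -0.57, -0.53, -0.50 and -0.47 in 3447 SP cells. In the same order they differed by 0.20, 0.084, 0.15, -0.043, 0.089 and 0.12 in 3447 non-SP cells. They differed by -0.49, -0.56, -0.49, -0.39, -0.52 and -0.48 between 3447 SP and non-SP cells. Between the lines they differed by -0.58, -0.57, -0.58, -0.53, -0.50 and -0.53. The assembly factors differed by -0.034 in 4346 SP, by 0.14 in 3447 non-SP, by -0.41 between 3447 SP and non-SP cells and by -0.30 between the lines. No normalization gave -0.20 for complex V between 3447 SP and non-SP cells. The mean of all probe sets gave 0.11 for complex II between neurosphere SP and non-SP cells and -0.15 for complex III in 3447 non-SP cells.

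Precision is limited by 3 arrays per group and, for genes near the array median such as Cox6b2 and Cox7c, by low signal.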
